A study of Mus musculus with 2 samples.

Results

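Patrolling, or Ly6Clo, monocytes were picked out of 15384 mouse liver myeloid cells by 6 genes that mark them, and 1200 cells met the rule. A cell was selected when at most 25% of its counts came from mitochondrial genes, when at least 3 of *Spn*, *Ace*, *Cd300e*, *Eno3*, *S1pr5* and *Treml4* had a count, and when *Clec4f*, *Cd209a* and *Cxcr2*, which mark Kupffer cells, a monocyte-derived dendritic subset and neutrophils, had none. *Spn* encodes the sialoglycoprotein CD43, *Ace* the angiotensin-converting enzyme, *S1pr5* a sphingosine-1-phosphate receptor, *Cd300e* and *Treml4* myeloid receptors, and *Eno3* an enolase. The levels of these 9 genes chose the cells and are therefore given as descriptions. The 1200 cells split by how many of the 6 markers they carried, and the 602 cells with at least 4 markers and the 598 with exactly 3 are described separately, because their other genes differed.

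Ly6Clo monocytes arise from Ly6Chi, or classical, monocytes, depend on the nuclear receptor *Nr4a1*, carry high levels of the fractalkine receptor CX3CR1 and crawl along the inner face of blood vessels. Classical monocytes express *Ly6c2* and *Ccr2*, are recruited into injured tissue, and there turn into macrophages. In fatty liver disease, recruited monocytes can become lipid-associated macrophages, which express *Trem2*, *Gpnmb* and *Spp1*.

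The study followed the transcription factor *Egr2* in monocyte-derived macrophages during diet-induced fatty liver disease with fibrosis. Livers of 4 mice were used, 1 per group. Egr2fl/fl and Lyz2Cre/+.Egr2fl/fl mice were each on a normal diet (ND) or on CDA-HFD for 7 weeks. CDA-HFD is a choline-deficient diet high in fat and with defined amino acids. Mice put on CDA-HFD were male and 6 to 12 weeks old at the start. The methods do not give sex and age separately for ND-fed mice. All 4 mice carried loxP-flanked *Egr2*, and the Cre recombinase was expressed from the *Lyz2* locus, which is active in monocytes, macrophages and neutrophils, so that the deletion was not limited to Ly6Clo monocytes. CD45.2+ CD11b+ cells negative for CD90.2, B220, NK1.1 and SiglecF were sorted, labelled with 1 hashtag per mouse and sequenced as single cells. With 1 mouse per group, a difference between mice has no replicate check, no test was made, and 95% intervals, given in brackets, cover counting error only.

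Of the sorted cells, 1723 and 1590 came from the ND-fed Egr2fl/fl and Lyz2Cre/+.Egr2fl/fl mice and 5885 and 6186 from the CDA-HFD-fed ones, with total counts of 32029953, 27840300, 85227192 and 90124521 in that order. No barcode was shared between mice. Among the selected cells, 38, 27, 101 and 83 had under 90% of their hashtag counts from their own mouse. In what follows, paired values for a diet give the Egr2fl/fl mouse first and the Lyz2Cre/+.Egr2fl/fl mouse second, and levels are counts per 1000000 (CPM) of all counts summed over the named cells of a mouse. Paired diet ratios, CDA-HFD over ND, likewise give the Egr2fl/fl pair of mice first, and paired genotype ratios, Lyz2Cre/+.Egr2fl/fl over Egr2fl/fl, give the ND pair first.

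The deposited counts of 34 genes, most of them abundant, had no value between 0 and 5, so that a cell listed at 0 for such a gene may have held a few counts. The lowest value above 0 was 7 for *C1qa* and *C1qc*, 6 for *C1qb*, *Cxcl2* and *Retnlg*, 7 for *Cd5l*, 8 for *H2-Aa*, *H2-Ab1*, *H2-Eb1* and *Clec4f*, 10 for *Cd74*, 11 for *Lyz2*, 18 for *Apoe*, 22 for *S100a9* and 160 for *Alb*. The selection on *Clec4f* was thus a limit of 8 counts, and for these genes the share of cells with a count, a level of 0 and the share from 1 cell all depend on the limit. None of the 6 markers, nor *Trem2*, *Gpnmb*, *Spp1* or *Mki67*, was among the 34.

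The selected cells numbered 131 and 81 on ND and 459 and 529 on CDA-HFD. They made up 7.60% (6.40 to 8.96) and 5.09% (4.07 to 6.29) of the cells on ND, and 7.80% (7.13 to 8.51) and 8.55% (7.87 to 9.28) on CDA-HFD. The share was higher on CDA-HFD by 3.46 percentage points (2.08 to 4.72) in the Lyz2Cre/+.Egr2fl/fl pair and by 0.196 points (-1.32 to 1.60) in the Egr2fl/fl pair, an interval that holds 0. Before the 3 excluded genes were applied, 236 and 178 cells on ND and 520 and 628 on CDA-HFD had at least 3 markers. *Clec4f* removed 89 and 82 of them on ND and 5 and 12 on CDA-HFD. Cells of a Kupffer cell gate, with *Clec4f*, at least 2 of *Timd4*, *Vsig4*, *Cd5l* and *Marco* and fewer than 3 of the 6 markers, numbered 684 and 759 on ND and 13 and 32 on CDA-HFD. The share of Ly6Clo cells therefore stood against a sort whose other cells differed greatly between diets, and fewer Ly6Clo monocytes cannot be told apart from more cells of other types.

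How many markers the selected cells carried differed between diets. On ND, 29 and 24 selected cells had exactly 3 markers, 34 and 14 had 4, 42 and 27 had 5, and 26 and 16 had all 6. On CDA-HFD, 262 and 283 had exactly 3, 106 and 141 had 4, 75 and 83 had 5, and 16 and 22 had all 6. Cells at the cut of 3 thus made up 22.1% and 29.6% of the selected cells on ND and 57.1% and 53.5% on CDA-HFD. Just outside the cut, 64 and 37 cells on ND and 641 and 716 on CDA-HFD carried exactly 2 markers.

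**Figure D1:**
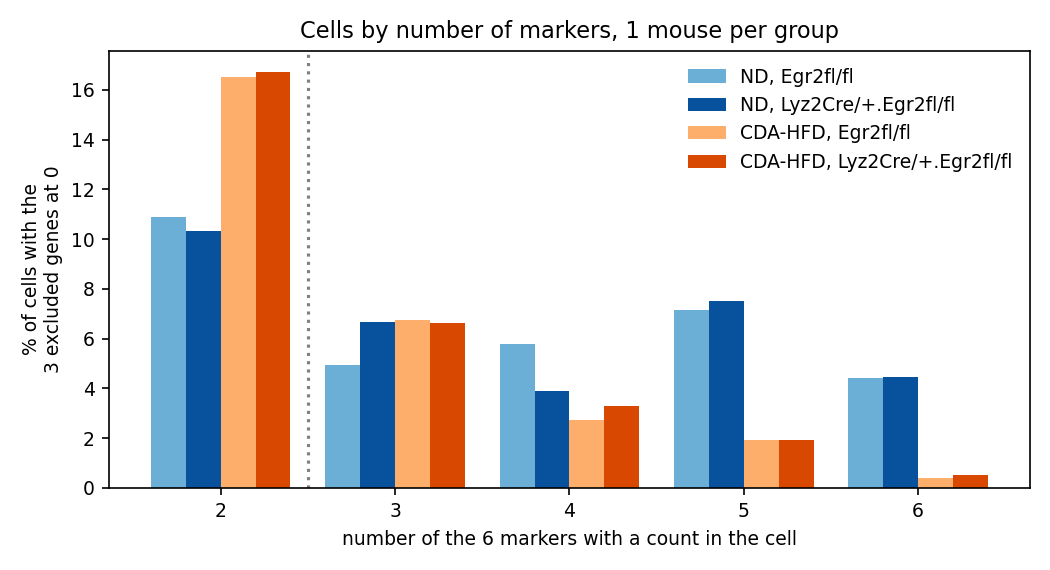
Percentage of cells with *Clec4f*, *Cd209a* and *Cxcr2* at 0 (y axis) that carried each number of the 6 markers (x axis), 1 bar per mouse. Cells with all 6 markers were 4.43% and 4.46% of such cells on ND and 0.412% and 0.514% on CDA-HFD, whereas cells with 2 markers were 10.9% and 10.3% on ND and 16.5% and 16.7% on CDA-HFD.

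The direction of the diet difference in abundance depended on this cut. Cells with at least 4 markers were 5.92% (4.85 to 7.14) and 3.58% (2.73 to 4.62) of all cells on ND and 3.35% (2.90 to 3.84) and 3.98% (3.50 to 4.49) on CDA-HFD. This was a difference of -2.57 percentage points (-3.87 to -1.40) in the Egr2fl/fl pair and 0.392 points (-0.746 to 1.39) in the Lyz2Cre/+.Egr2fl/fl pair. Cells with at least 5 markers were lower on CDA-HFD in both pairs, at 3.95% and 2.70% on ND and 1.55% and 1.70% on CDA-HFD, differences of -2.40 points (-3.47 to -1.46) and -1.01 points (-1.98 to -0.186). Cells with exactly 3 were higher in both, at 1.68% and 1.51% on ND and 4.45% and 4.57% on CDA-HFD. Counts per cell moved with diet as well: the median was 7306 and 6961 counts in the selected cells on ND and 11663 and 12075 on CDA-HFD. After thinning every cell to 5000 counts, which left out 176 and 239 cells on ND and 991 and 829 on CDA-HFD, cells with at least 3 markers were 6.66% and 4.52% on ND and 4.80% and 5.94% on CDA-HFD, and cells with at least 4 were 5.37% and 3.40% on ND and 2.19% and 2.69% on CDA-HFD. At matched depth the share with at least 4 markers differed by -3.18 points (-4.48 to -2.02) in the Egr2fl/fl pair and by -0.717 points (-1.90 to 0.299), an interval that holds 0, in the other. The share with at least 3 differed by -1.86 points (-3.33 to -0.505) and 1.42 points (0.0290 to 2.66).

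The cells with at least 4 markers had the profile that the name Ly6Clo monocyte implies. Genes that the rule did not use and that had a count in at least 20% of these cells in every mouse were ranked. By the lowest of the 4 ratios within a mouse, those that most separated these cells from the sorted cells that the rule did not select were *Ceacam1* at 9.58, *Ceacam2* at 9.11, *Slc12a2* at 6.98, *Smpdl3b* at 6.22, *Bcl2* at 6.15, *Dusp16* at 5.79, *Serpinb10* at 5.55 and *Pglyrp1* at 5.10. *Ceacam1* and *Ceacam2* encode closely related adhesion proteins whose reads may not be told apart, *Slc12a2* a chloride cotransporter, and *Bcl2* the founding anti-apoptotic protein. These ratios are a description, since the cells were chosen by co-expressed genes.

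*Pglyrp1*, a peptidoglycan recognition protein, was at 1306 and 1285 CPM on ND and 571 and 522 CPM on CDA-HFD in cells with at least 4 markers. It was at 327 and 437 CPM on ND and 112 and 106 CPM on CDA-HFD in cells with exactly 3 and at 48.5 and 93.4 CPM on ND and 50.9 and 49.2 CPM on CDA-HFD in cells of a classical monocyte gate. That gate required a count of *Ly6c2*, of *Ccr2* and of at least 2 of 4 further classical genes, fewer than 3 of the 6 markers and the 3 excluded genes at 0, and held 85 and 53 cells on ND and 719 and 877 on CDA-HFD. The levels of those 6 classical genes in it are therefore set by the choice of its cells. Its level was thus lower with exactly 3 markers than with at least 4 in all 4 mice. *Ceacam1* was at 375 and 363 CPM on ND and 296 and 283 CPM on CDA-HFD with at least 4 markers and 109.7 and 138 CPM on ND and 109 and 144 CPM on CDA-HFD with exactly 3, and *Bcl2* at 87.2 and 145 CPM on ND and 81.6 and 89.9 CPM on CDA-HFD and 24.4 and 21.8 CPM on ND and 35.3 and 41.5 CPM on CDA-HFD. All 3 genes were at a higher level with at least 4 markers in every mouse. They were named for their level in those cells, so this order was partly set by the choice.

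*Nr4a1*, on which the survival of Ly6Clo monocytes depends, was at 452 and 429 CPM on ND and 792 and 697 CPM on CDA-HFD with at least 4 markers and 90.2 and 175 CPM on ND and 433 and 446 CPM on CDA-HFD with exactly 3. In the classical gate it was at 45.8 and 90.5 CPM on ND and 517 and 408 CPM on CDA-HFD, so on ND it separated both monocyte classes by a wide margin and on CDA-HFD by a narrow one. *Cx3cr1* separated them little, at 578 and 491 CPM on ND and 459 and 589 CPM on CDA-HFD with at least 4 markers and 356 and 485 CPM on ND and 437 and 465 CPM on CDA-HFD in the classical gate. The eosinophil-associated ribonuclease gene *Ear2*, a member of a family of near-identical genes, was at 2165 and 2605 CPM on ND and 2006 and 2362 CPM on CDA-HFD, against 94.3 and 156 CPM on ND and 307 and 359 CPM on CDA-HFD in the classical gate. *Fabp4*, a fatty acid-binding protein, was at 211 and 241 CPM on ND and 364 and 428 CPM on CDA-HFD with at least 4 markers and 0 and 0 CPM on ND and 16.9 and 37.6 CPM on CDA-HFD in the classical gate.

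**Figure D2:**
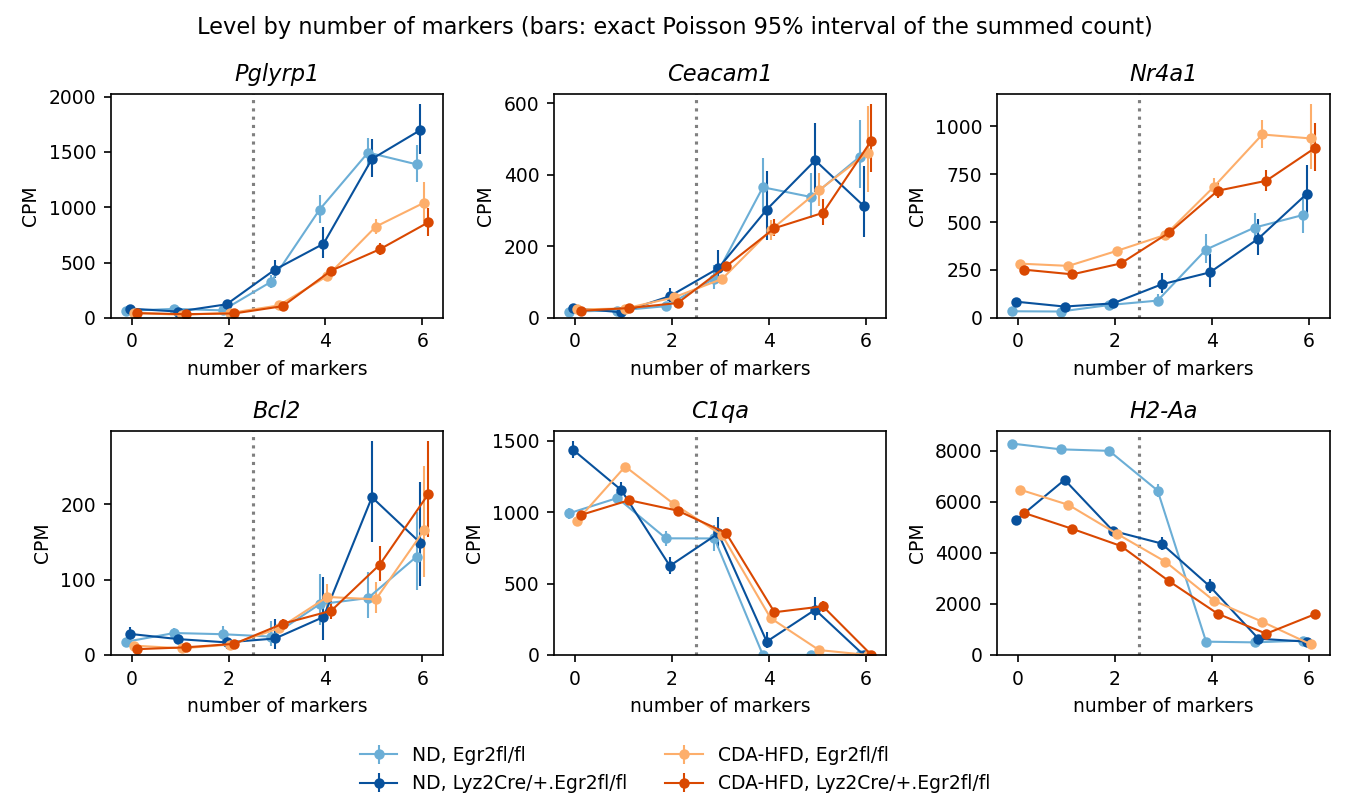
CPM of 6 genes (y axes) by the number of markers a cell carried (x axes), 1 line per mouse, with exact Poisson 95% intervals of the summed counts. *Pglyrp1*, *Ceacam1*, *Nr4a1* and *Bcl2* were at a higher level with 4 markers than with 3 in every mouse, with overlapping intervals for *Bcl2* and *Nr4a1* in some, and *C1qa* was between 817 and 855 CPM in cells with 3 markers and listed at 0 in cells with 6.

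Cells with exactly 3 markers did not carry this profile alone. *C1qa*, a complement subunit made by macrophages, was at 817 and 852 CPM on ND and 839.9 and 855 CPM on CDA-HFD in them and at 0 and 160.0 CPM on ND and 167 and 289 CPM on CDA-HFD in cells with at least 4 markers. After thinning to 3000 counts, *C1qa* was found in 13.8 and 16.7% on ND and 20.2 and 18.4% on CDA-HFD of cells with exactly 3 markers and in 0 and 3.51% on ND and 4.06 and 5.28% on CDA-HFD of those with at least 4. In the ND-fed Lyz2Cre/+.Egr2fl/fl mouse the median depth was 6855 counts with exactly 3 markers and 7011 with at least 4, and the deepest cell had 37726 and 16789 counts. In the other 3 mice it was 11160, 13952 and 13723 counts with exactly 3 and 7103.5, 9294 and 10260.5 with at least 4, and the part of depth and of the limit on *C1qa* in this difference was not tested. The MHC class II gene *H2-Aa* was at 6434 and 4362 CPM on ND and 3649.9 and 2882 CPM on CDA-HFD with exactly 3 markers and at 518 and 1208 CPM on ND and 1739 and 1365 CPM on CDA-HFD with at least 4. On ND, *H2-Aa* thus differed more than on CDA-HFD between cells on either side of the cut, and 47.9% of the *H2-Aa* counts of the 57 ND-fed Lyz2Cre/+.Egr2fl/fl cells with at least 4 markers came from 1 cell. *Trem2*, a lipid receptor of lipid-associated macrophages, was at 73.1 and 186 CPM on ND and 403 and 388 CPM on CDA-HFD with exactly 3 markers and 11.2 and 70.4 CPM on ND and 163 and 201 CPM on CDA-HFD with at least 4.

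Proliferation genes also lay in the cells at the cut on ND. *Mki67* was at 60.9 and 91 CPM on ND and 14.2 and 7.57 CPM on CDA-HFD with exactly 3 markers and 8.72 and 0 CPM on ND and 3.34 and 1.75 CPM on CDA-HFD with at least 4, and the 4 proliferation genes summed to 453 and 492 CPM on ND and 90.8 and 45.2 CPM on CDA-HFD in the former. *Pglyrp1* was found, after thinning, in 37.9 and 45.8% on ND and 21 and 20.1% on CDA-HFD of cells with exactly 3 markers and in 81.4 and 78.9% on ND and 59.4 and 55.7% on CDA-HFD of those with at least 4. Macrophage and MHC class II genes, and on ND proliferation genes, therefore went against calling all selected cells patrolling monocytes. Cells with exactly 3 markers are called by that rule below, and Ly6Clo monocytes refers to the 602 cells with at least 4.

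**Figure D3:**
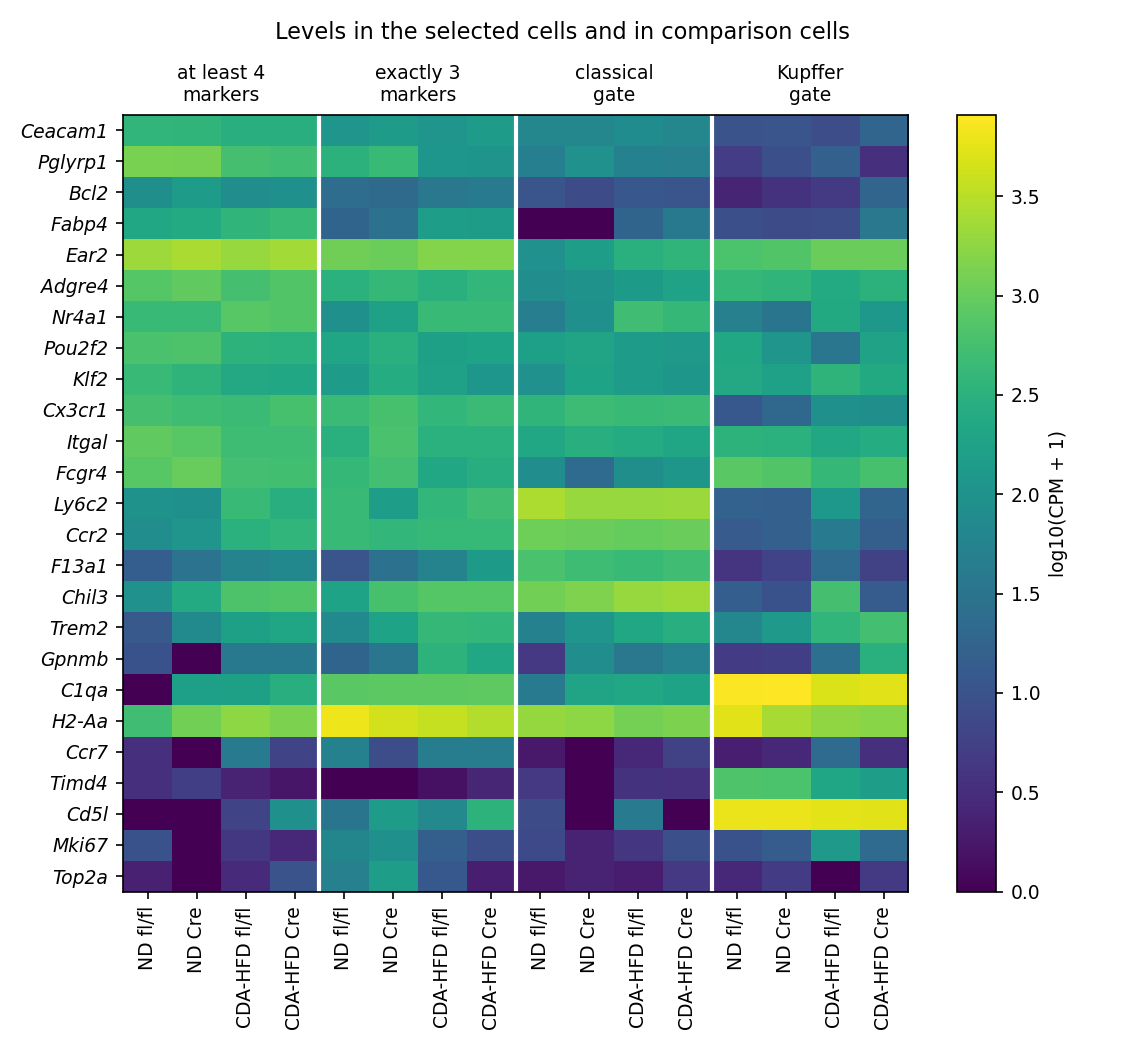
Levels, as log10 of CPM plus 1, of 25 genes (y axis) in cells with at least 4 markers, with exactly 3, in the classical monocyte gate and in the Kupffer cell gate of each mouse (x axis). *Pglyrp1* was at 1306 and 1285 CPM in ND-fed cells with at least 4 markers and at 48.5 and 93.4 CPM in the ND-fed classical gate, while *Ly6c2*, with which the classical gate was chosen, was at 99.7 and 91.8 CPM in the former and at 2722 and 2030 CPM in the latter.

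Markers of several other cell types were low in the Ly6Clo monocytes, and some rested on single cells. The 6 T and NK cell genes summed to 66.0, 6.40, 16.2 and 8.40 CPM in the ND-fed Egr2fl/fl, ND-fed Lyz2Cre/+.Egr2fl/fl, CDA-HFD-fed Egr2fl/fl and CDA-HFD-fed Lyz2Cre/+.Egr2fl/fl mice. Behind the first value, 97.1% of the 35 *Nkg7* counts came from 1 cell. The 4 B cell genes summed to 154.5, 21.3, 12.4 and 22.4 CPM. In the first mouse, 65.6% of the *Cd79a* counts came from 1 cell. Hepatocyte genes reached at most 23.9 CPM, endothelial genes at most 21.3 CPM and platelet genes at most 44.8 CPM, with *Ppbp* at 0. The 6 dendritic cell genes summed to 9.97 and 8.54 CPM on ND and 50.6 and 49.4 CPM on CDA-HFD. Neutrophil genes summed to 284 and 262.5 CPM on ND and 205.3 and 656.2 CPM on CDA-HFD, and part of the last value came from single cells. The highest cell of each gene held all 660 *S100a9* counts, 86.5% of the 126 *Retnlg* counts and 55.8% of the 771 *S100a8* counts. In that mouse these 3 genes were called higher than in the CDA-HFD-fed Egr2fl/fl mouse, where *S100a9* and *Retnlg* were listed at 0. The 9 Kupffer cell genes summed to 111 and 254 CPM on ND and 765 and 592 CPM on CDA-HFD. *Id3*, a transcriptional regulator that the classical gate also expressed, made up 39.9 and 173 CPM on ND and 652 and 366 CPM on CDA-HFD. Of 262 *Cd5l* counts in the CDA-HFD-fed Lyz2Cre/+.Egr2fl/fl mouse, 96.9% came from 1 cell. The part of these cells in the results below was not tested, and the share of the highest cell is given where it was large.

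The levels of the 6 markers themselves, which the selection set in part, had diet ratios between 0.283 and 0.770 in the Ly6Clo monocytes, and cells with 5 or 6 markers were also a smaller share on CDA-HFD. *Ace* was at 1382 and 1468 CPM on ND and 775 and 712 CPM on CDA-HFD, *Spn* at 543 and 599.6 CPM on ND and 311 and 285 CPM on CDA-HFD and *Cd300e* at 761 and 777 CPM on ND and 241 and 220.1 CPM on CDA-HFD. The markers were not all limited to these cells: after thinning, *Treml4* was found in 41.2% and 39.1% and *Cd300e* in 33.8% and 24.5% of the cells of the Kupffer cell gate on ND. Of the 105 and 97 ND-fed cells with at least 3 markers that the 3 excluded genes removed, 89 and 82 had *Clec4f*.

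To ask how the diet altered the profile, the CDA-HFD-fed and ND-fed mice were compared within each genotype, and a gene was called higher or lower when its CPM differed at least 2-fold and it had at least 50 counts summed over the pair. In the Ly6Clo monocytes, 425 of 5779 genes (7.35%) were higher and 381 (6.59%) lower on CDA-HFD in the Egr2fl/fl pair, and 708 of 6238 (11.3%) higher and 381 (6.11%) lower in the Lyz2Cre/+.Egr2fl/fl pair. These pairs share no mouse, and of 5543 genes with enough counts in both, 167 (3.01%) were higher and 65 (1.17%) lower in both. Counts of called genes in the lists below are to be read beside these shares. Under trimmed-mean (TMM) scaling the splits of higher and lower genes became 508 and 266 in the Egr2fl/fl pair and 867 and 254 in the other, and the median log2 ratio of all genes moved from -0.08 to 0.06 and from -0.00 to 0.16. In all selected cells, 700 of 8572 genes (8.17%) were higher and 601 (7.01%) lower in the Egr2fl/fl pair, 986 of 8705 (11.3%) higher and 595 (6.84%) lower in the Lyz2Cre/+.Egr2fl/fl pair, and 274 (3.32%) higher and 139 (1.68%) lower in both. Under TMM scaling those splits were 971 and 347, and 1285 and 376.

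Most immediate early genes were higher on CDA-HFD in the Ly6Clo monocytes. Of 12 with enough counts, 10 were higher in the Egr2fl/fl pair and 9 in the Lyz2Cre/+.Egr2fl/fl pair, none was lower, and 9 were higher in both, namely *Fos*, *Fosb*, *Junb*, *Jund*, *Egr1*, *Atf3*, *Dusp1*, *Zfp36* and *Nr4a2*. The median ratio of the list was 3.52 and 3.09, beside 0.946 and 0.997 for all genes tested. *Atf3*, a stress-responsive transcription factor, was at 103 and 68.3 CPM on ND and 1209.7 and 938 CPM on CDA-HFD, with diet ratios of 11.7 (9.4 to 14.7) and 13.7 (9.71 to 20.1). *Fos*, a subunit of the AP-1 transcription factor, was at 222 and 237 CPM on ND and 1174 and 1469.6 CPM on CDA-HFD, with ratios of 5.29 (4.55 to 6.2) and 6.2 (5.14 to 7.56). Both ND-fed mice lay below both CDA-HFD-fed mice for these genes. *Dusp1*, a phosphatase that restrains MAP kinases, was at 171 and 96 CPM on ND and 641 and 706 CPM on CDA-HFD, and *Zfp36*, which destabilises cytokine mRNAs, at 458 and 309 CPM on ND and 1084 and 1016 CPM on CDA-HFD.

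The classical gate showed the same direction. There the diet ratios were 7.14 and 7.68 for *Atf3*, 3.96 and 4.13 for *Fos* and 3.81 and 5.1 for *Dusp1*. Among Ly6Clo monocytes with at least 5 markers they were 15.6 and 15.2 for *Atf3* and 5.59 and 8.71 for *Fos*. *Per1*, a clock gene that glucocorticoids also induce, was at 18.7 and 25.6 CPM on ND and 94.5 and 81.5 CPM on CDA-HFD, and *Ier2*, another immediate early gene, was not called in either pair, at 274 and 245 CPM on ND and 401 and 360.1 CPM on CDA-HFD.

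Several cytokine and chemokine genes were higher on CDA-HFD. Of 6 and 8 with enough counts, 4 and 5 were higher and none was lower, beside 7.35% and 11.3% of all genes higher. The list's median ratio was 6.13 and 7.05, beside 0.946 and 0.997 for all genes. *Il1b*, *Ccl3*, *Ccl4* and *Cxcl2* were higher in both pairs. *Il1b* was at 316 and 267 CPM on ND and 1822 and 1920.3 CPM on CDA-HFD, with diet ratios of 5.76 (5.07 to 6.56) and 7.2 (6.03 to 8.67). *Ccl3* was at 76 and 40.5 CPM on ND and 494 and 518 CPM on CDA-HFD and *Ccl4*, which encodes a related chemokine, at 53.6 and 29.9 CPM on ND and 392 and 499 CPM on CDA-HFD. Both ND-fed mice lay below both CDA-HFD-fed mice for all 3 genes. *Cxcl2*, a neutrophil attractant, was at 13.7 and 49.1 CPM on ND and 276 and 338 CPM on CDA-HFD, but all 11 counts of the ND-fed Egr2fl/fl mouse and 56.5% of those of the other ND-fed mouse came from 1 cell, and values under 6 were absent. *Tnf* had too few counts for a call in the Egr2fl/fl pair and was not called in the other. It was at 11.2 and 19.2 CPM on ND and 11.5 and 25.2 CPM on CDA-HFD. In the classical gate the *Il1b* ratios were 9.95 and 16.5.

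Among genes called higher in both pairs and found in at least 10% of the cells of the higher mouse of each, ranked by the smaller of their ratios, *Atf3* came first and *Cd14* next. *Cd14* encodes the co-receptor for bacterial lipopolysaccharide and was at 34.9 and 23.5 CPM on ND and 406 and 468 CPM on CDA-HFD in Ly6Clo monocytes, with diet ratios of 11.6 (7.99 to 17.6) and 19.9 (11.1 to 40). The ND-fed values rested on 28 and 11 counts, and after thinning *Cd14* was found in 3.92 and 3.51% on ND and 35 and 37.4% on CDA-HFD of the cells. The classical gate showed diet ratios of 16 and 18.5, from 64.3 and 55.2 CPM on ND and 1031 and 1019 CPM on CDA-HFD. The other genes named by this rule were *Ier3*, *Pim3*, *Gm26532*, *Ccl4*, *Clec4d*, *Ccl3*, *Rab20* and *Ifi213*. The C-type lectin gene *Clec4d* was at 14.9 and 6.4 CPM on ND and 108 and 154 CPM on CDA-HFD, the kinase gene *Pim3* at 4.98 and 4.27 CPM on ND and 45.8 and 57 CPM on CDA-HFD, and the stress-response gene *Ier3* at 4.98 and 4.27 CPM on ND and 46.8 and 64.4 CPM on CDA-HFD. Their ND levels rested on 2 to 12 counts per mouse, so the ratios are imprecise.

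**Figure D4:**
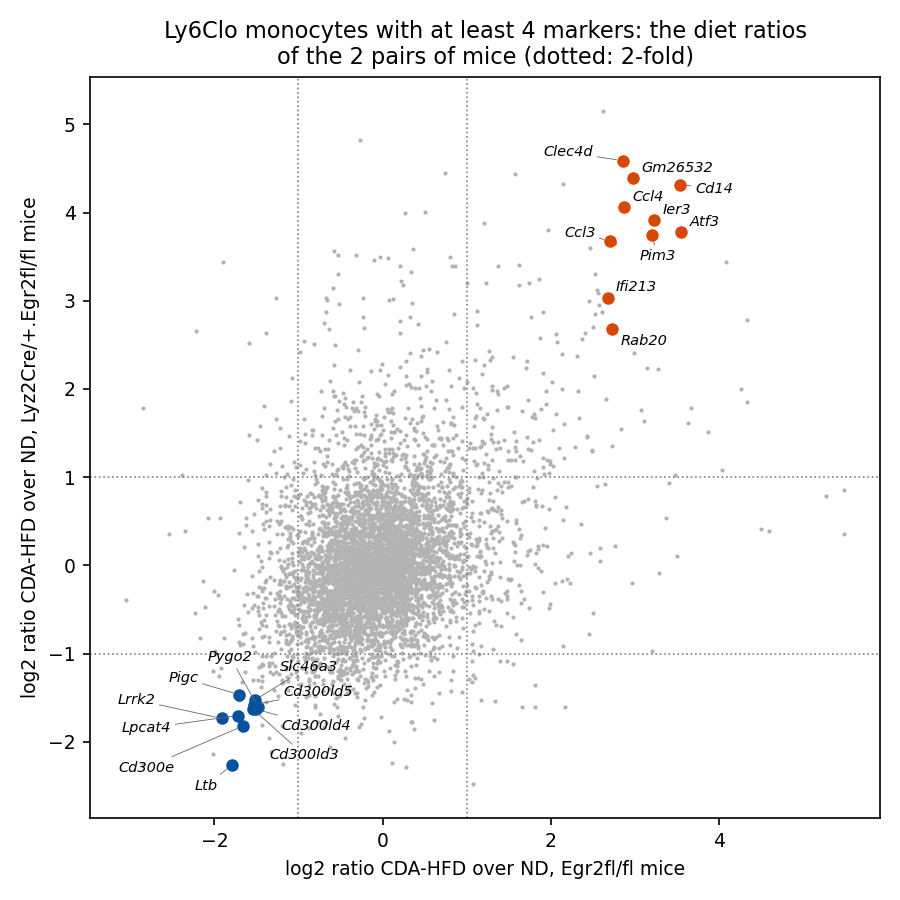
Diet ratio, as log2 of CDA-HFD over ND, in the Egr2fl/fl pair (x axis) and the Lyz2Cre/+.Egr2fl/fl pair (y axis) of mice for each gene with enough counts in the Ly6Clo monocytes with at least 4 markers; dotted lines mark 2-fold. Of 5543 genes, 167 lay past 2-fold upward and 65 past 2-fold downward in both pairs.

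Classical monocyte genes were higher in the CDA-HFD-fed Ly6Clo monocytes. Of 8 with enough counts, 7 were higher in each pair and none was lower, beside 7.35% and 11.3% of all genes higher. Those higher in both included *Ly6c2*, *Ccr2*, *F13a1*, *Chil3* and *Hp*. The list's median ratio was 3.95 and 2.98. Its 9 genes summed to 600.5 and 813 CPM on ND and 2366 and 2543 CPM on CDA-HFD, against 6961 to 7811 CPM in the classical gate of the 4 mice, whose cells were chosen by 6 of the 9. In the sorted cells that the rule did not select, they summed to 830 and 598 CPM on ND and 2115 and 2453 CPM on CDA-HFD. The higher sum on CDA-HFD was thus not limited to Ly6Clo monocytes. *Ccr2*, the receptor that draws classical monocytes out of the bone marrow, was at 82.2 and 107 CPM on ND and 315 and 380.1 CPM on CDA-HFD, with diet ratios of 3.83 (2.97 to 5.01) and 3.56 (2.68 to 4.83), and after thinning was found in 13.7 and 12.3% on ND and 28.9 and 38.2% on CDA-HFD of the cells. In the classical gate, every cell of which had a *Ccr2* count by choice, it was at 1124 and 1039.7 CPM on ND and 955 and 1023 CPM on CDA-HFD.

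*Ly6c2*, which encodes the surface protein that defines the classical class, was at 99.7 and 91.8 CPM on ND and 445 and 279 CPM on CDA-HFD in Ly6Clo monocytes, with diet ratios of 4.46 (3.55 to 5.68) and 3.04 (2.23 to 4.23). Of the 80 counts of the ND-fed Egr2fl/fl mouse, 61.2% came from 1 cell. After thinning it was found in 6.86 and 12.3% on ND and 20.3 and 22% on CDA-HFD of the cells, a share higher on CDA-HFD in both pairs. Among cells with at least 5 markers the *Ly6c2* ratios were 1.2 and 5.4 and the *Ccr2* ratios 1.49 and 4.9, so in the Egr2fl/fl pair neither was called there. *Hp*, the haptoglobin gene, was at 109.6 and 149 CPM on ND and 544 and 776 CPM on CDA-HFD, with ratios of 4.96 (3.99 to 6.24) and 5.2 (4.1 to 6.69), and had ratios of 4 and 4.54 with at least 5 markers. *Chil3*, a chitinase-like protein, was at 93.4 and 243 CPM on ND and 665 and 713 CPM on CDA-HFD.

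Among 14 genes for trafficking, 4 were higher in each pair, and 2 and 0 were lower. Over all genes, 7.35% and 11.3% were higher and 6.59% and 6.11% lower. Those of the list higher in both pairs included *Ccr2* and *Cxcr4*. *Cxcr4*, the receptor that retains cells in the bone marrow, was at 128 and 117 CPM on ND and 427 and 431 CPM on CDA-HFD in Ly6Clo monocytes, with diet ratios of 3.33 (2.71 to 4.12) and 3.67 (2.8 to 4.9), and at 48.5 and 36.8 CPM on ND and 309 and 296 CPM on CDA-HFD in the classical gate. Both diets were thus separated in both monocyte classes for this gene. The integrin gene *Itgb7* was at 163 and 98.2 CPM on ND and 73 and 66.1 CPM on CDA-HFD and was called lower in the Egr2fl/fl pair alone, as was the adhesion protein gene *Pecam1* at 54.8 and 42.7 CPM on ND and 20.5 and 30.4 CPM on CDA-HFD. *Itgal*, the alpha chain of LFA-1 with which these cells crawl, was at 903 and 770.3 CPM on ND and 503 and 492 CPM on CDA-HFD, with ratios of 0.557 (0.506 to 0.613) and 0.639 (0.569 to 0.72), and its partner *Itgb2* at 896 and 973 CPM on ND and 567 and 654 CPM on CDA-HFD. Neither passed 2-fold.

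Of 17 surface and effector genes of Ly6Clo monocytes outside the rule, none was called higher on CDA-HFD, and 1 and 2 were called lower, beside 6.59% and 6.11% of all genes. Their median ratios were 0.772 and 0.832, beside 0.946 and 0.997 for all genes. *Pglyrp1* was lower in both pairs, with ratios of 0.437 (0.402 to 0.476) and 0.406 (0.369 to 0.447), and, among cells with the same number of markers, it was at 1495 and 1437 CPM on ND and 825 and 619.9 CPM on CDA-HFD in cells with 5 markers. With all 6 markers it was at 1389 and 1698 CPM on ND and 1042 and 863 CPM on CDA-HFD. Both ND-fed mice thus lay above both CDA-HFD-fed mice at either number of markers. In all selected cells with no gene required at 0, however, the ratio in the Lyz2Cre/+.Egr2fl/fl pair was 1.05.

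*Ear2*, *Gngt2* and *Csf1r*, which encode a ribonuclease, a G protein subunit and the receptor for the growth factor that maintains monocytes, had ratios of 0.926 and 0.907, 0.799 and 0.954 and 0.888 and 0.832. *Adgre4*, an adhesion receptor of the F4/80 family, was at 749 and 907 CPM on ND and 578 and 694 CPM on CDA-HFD. *Itgax*, the CD11c gene, was at 119.6 and 248 CPM on ND and 112 and 91.3 CPM on CDA-HFD and was called lower in the Lyz2Cre/+.Egr2fl/fl pair alone. *Fabp4* was the gene of this list with the highest ratios, 1.73 (1.46 to 2.06) and 1.78 (1.46 to 2.17), and with at least 5 markers they were 2.5 and 2.66.

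Of 9 transcription factor genes of these cells, none was called in the Egr2fl/fl pair and *Pou2f2* was called lower in the Lyz2Cre/+.Egr2fl/fl pair. *Pou2f2* lost this call under TMM scaling. *Nr4a1* was higher on CDA-HFD in both pairs without reaching 2-fold, with ratios of 1.75 (1.56 to 1.97) and 1.63 (1.41 to 1.89), whereas in the classical gate its ratios were 11.3 and 4.5. *Klf2*, a factor of quiescent and circulating leukocytes, was at 437 and 344 CPM on ND and 225 and 212 CPM on CDA-HFD, with ratios of 0.515 (0.448 to 0.593) and 0.616 (0.517 to 0.738), and *Pou2f2* at 609 and 657 CPM on ND and 330.4 and 318 CPM on CDA-HFD, with ratios of 0.542 (0.482 to 0.61) and 0.484 (0.425 to 0.553). *Cebpb*, which controls *Nr4a1* in monocytes, had ratios of 1.16 (0.866 to 1.58) and 1.21 (0.837 to 1.79), both intervals holding 1.

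**Figure D5:**
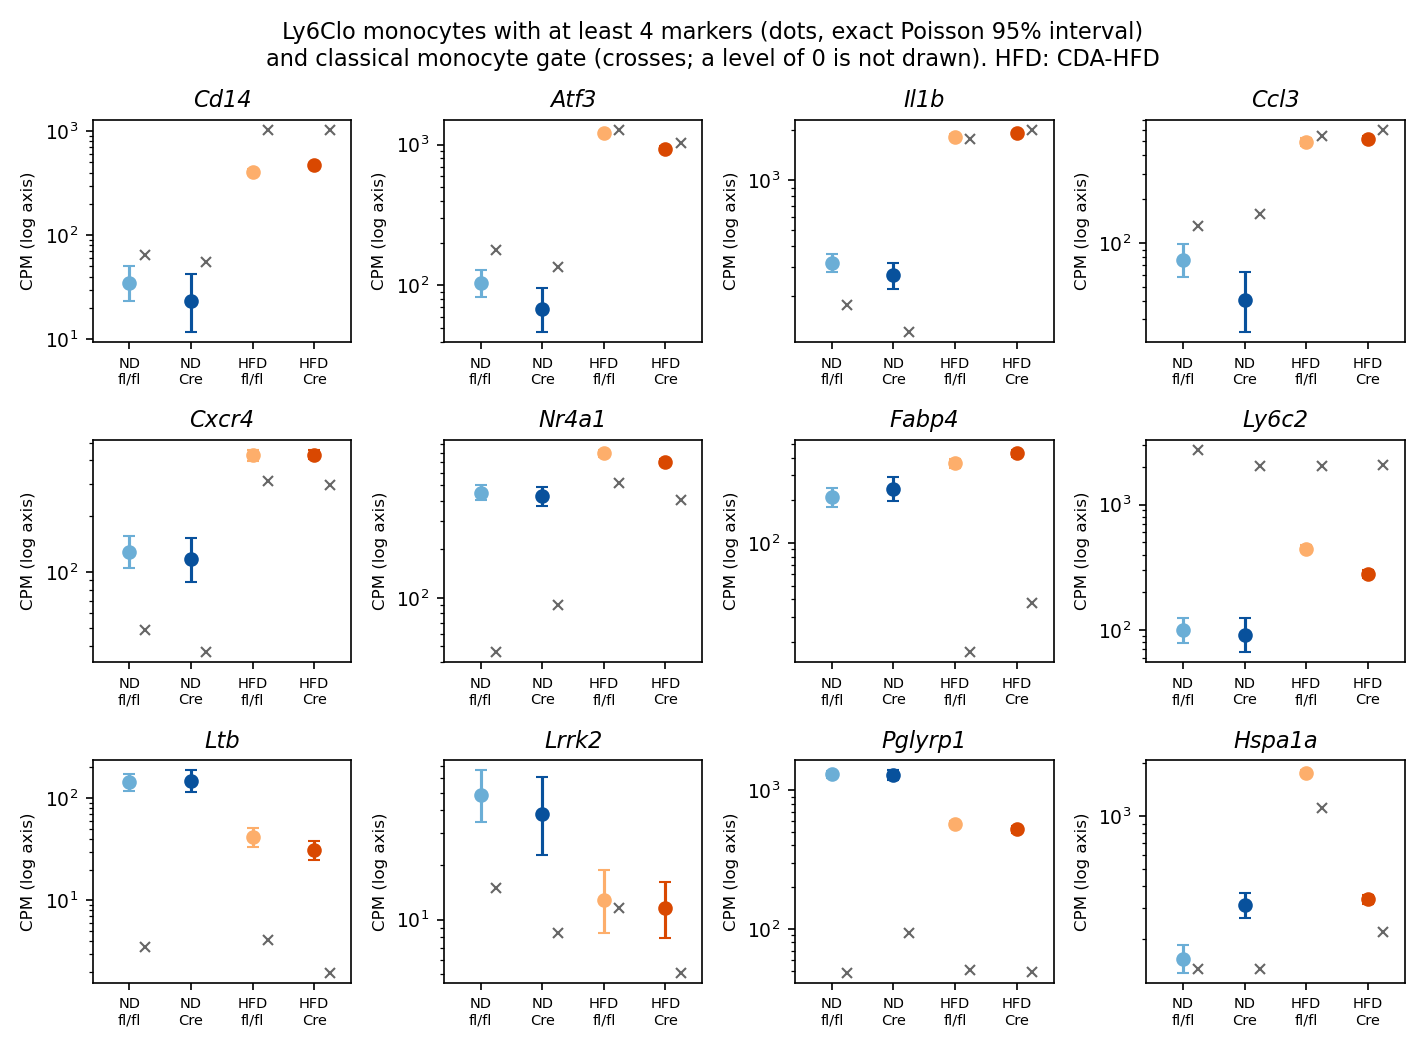
CPM (y axes, log scale) of 12 genes in each mouse (x axes) in Ly6Clo monocytes with at least 4 markers (dots, with exact Poisson 95% intervals) and in the classical monocyte gate (crosses; a level of 0 is not drawn). *Atf3* was at 103 and 68.3 CPM on ND and 1209.7 and 938 CPM on CDA-HFD in the former.

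Among genes called lower in both pairs and found in at least 10% of the cells of the higher mouse of each, *Ltb*, which encodes lymphotoxin beta, came first. It was at 143 and 147 CPM on ND and 41.5 and 30.8 CPM on CDA-HFD in Ly6Clo monocytes, with diet ratios of 0.29 (0.217 to 0.386) and 0.209 (0.151 to 0.291), and at 3.53 and 0 CPM on ND and 4.07 and 1.97 CPM on CDA-HFD in the classical gate. The ratios with at least 5 markers were 0.345 and 0.275. Next came *Lrrk2*, a large kinase gene, at 48.6 and 38.4 CPM on ND and 12.9 and 11.5 CPM on CDA-HFD, and *Lpcat4*, which encodes a lysophospholipid acyltransferase, at 54.8 and 51.2 CPM on ND and 16.7 and 15.7 CPM on CDA-HFD. *Slc46a3*, a lysosomal transporter gene, was at 112 and 107 CPM on ND and 39.1 and 37.1 CPM on CDA-HFD, and was also lower in the classical gate, with ratios of 0.304 and 0.198. *Cd300e* and the related genes *Cd300ld3*, *Cd300ld4* and *Cd300ld5* were among the 10 as well, with ratios between 0.283 and 0.354, but *Cd300e* is a marker of the rule and the other 3 are near-identical copies among which reads may be divided uncertainly. *Pygo2* and *Pigc*, with roles in Wnt signalling and in anchor synthesis for membrane proteins, were at 38.6 and 42.7 CPM on ND and 13.8 and 14 CPM on CDA-HFD and 43.6 and 40.5 CPM on ND and 13.4 and 14.7 CPM on CDA-HFD.

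Of the macrophage genes, 4 were higher on CDA-HFD in both pairs. The 10 genes of the list summed to 3650 and 4807 CPM on ND and 6896 and 5781 CPM on CDA-HFD in cells with exactly 3 markers, and to 1253 and 2014 CPM on ND and 2274 and 2752 CPM on CDA-HFD in Ly6Clo monocytes. In Ly6Clo monocytes 7 of 10 were higher in the Egr2fl/fl pair and 4 in the Lyz2Cre/+.Egr2fl/fl pair, beside 7.35% and 11.3% of all genes. *Trem2*, *Gpnmb*, *Spp1* and *Cd63* were higher in both. The other 3 called in the Egr2fl/fl pair were *C1qa*, *C1qb* and *C1qc*, which were listed at 0 in its ND-fed mouse and have the limits given above. *Gpnmb* was at 8.72 and 0 CPM on ND and 36.8 and 37.1 CPM on CDA-HFD in Ly6Clo monocytes and at 17.1 and 32.8 CPM on ND and 332 and 209 CPM on CDA-HFD in cells with exactly 3 markers. In the former, 72.6% of the counts of the CDA-HFD-fed Lyz2Cre/+.Egr2fl/fl mouse came from 1 cell. With at least 5 markers its ratio in the Egr2fl/fl pair was 0.921 (0.252 to 3.68), and the ND-fed Lyz2Cre/+.Egr2fl/fl mouse had no count. In Ly6Clo monocytes the *Gpnmb* and *Spp1* calls rested on few ND counts. For *Gpnmb*, the ND-fed Lyz2Cre/+.Egr2fl/fl mouse had none and was set at 3 counts. *Trem2* was at 11.2 and 70.4 CPM on ND and 163 and 201 CPM on CDA-HFD, with ratios of 14.6 (7.58 to 32.1) and 2.85 (2.01 to 4.18), and had ratios of 17.1 and 2.73 with at least 5 markers. *Cd9*, which lipid-associated macrophages also express, was at 396 and 510.0 CPM on ND and 243 and 268 CPM on CDA-HFD, with ratios of 0.612 (0.531 to 0.706) and 0.526 (0.454 to 0.61), and was not called in either pair.

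Across all selected cells the genes with the highest diet ratios in both pairs were *Cd14*, *Gpnmb*, *Lpl*, *Ier3*, *Thbs1*, *Clec4d*, *Atf3*, *Cxcl2*, *Osm* and *Spp1*. *Spp1*, the osteopontin gene, was at 48.8 and 0 CPM on ND and 269 and 111 CPM on CDA-HFD with exactly 3 markers and 9.97 and 2.13 CPM on ND and 54.9 and 25.9 CPM on CDA-HFD in Ly6Clo monocytes. The genes with the lowest were *Hist1h2ap*, *Ltb*, *Scnn1a*, *Hist1h2ao*, *Cd300e*, *Gbp2*, *Pglyrp1*, *Tgm3*, *Ampd3* and *Lrrk2*. *Hist1h2ap*, a replication-dependent histone gene with near-identical copies, was at 251 and 401 CPM on ND and 21.1 and 16.5 CPM on CDA-HFD with exactly 3 markers and 42.4 and 34.1 CPM on ND and 22 and 23.1 CPM on CDA-HFD in Ly6Clo monocytes, so its low ratio in all selected cells rested on the cells at the cut.

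Among genes of lipid handling, 2 and 4 were higher and 2 and none lower of 13 and 14 with enough counts. Over all genes, 7.35% and 11.3% were higher and 6.59% and 6.11% lower. The list's median ratio was 1.52 and 1.44, beside 0.946 and 0.997 for all genes, and *Lpl* was higher in both pairs. *Lpl*, the lipoprotein lipase gene, was at 28.7 and 59.7 CPM on ND and 174 and 438 CPM on CDA-HFD in Ly6Clo monocytes and at 141 and 117 CPM on ND and 1015 and 1211 CPM on CDA-HFD with exactly 3 markers. *Apoe*, an apolipoprotein gene, was at 4159.7 and 6817 CPM on ND and 6323 and 7369 CPM on CDA-HFD, with ratios of 1.52 (1.46 to 1.58) and 1.08 (1.04 to 1.12). Values under 18 in a cell were absent. *Cd36*, a fatty acid transporter and scavenger receptor gene, was at 372 and 356 CPM on ND and 221 and 398 CPM on CDA-HFD in Ly6Clo monocytes, whereas in the classical gate it was at 13.2 and 15.6 CPM on ND and 59 and 138 CPM on CDA-HFD. *Cd36* thus stood higher in Ly6Clo monocytes than in the classical gate in all 4 mice.

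Beside 7.35% and 11.3% of all genes higher in the 2 pairs, 3 of 6 MHC class II genes were higher in the Egr2fl/fl pair. These were *H2-Aa*, *H2-Ab1* and *H2-Eb1*, and *H2-DMa* alone was higher in the Lyz2Cre/+.Egr2fl/fl pair. Summed over the list they were at 3759 and 6111 CPM on ND and 8732 and 6812 CPM on CDA-HFD in Ly6Clo monocytes, and at 31931 and 21284 CPM on ND and 17683 and 14139 CPM on CDA-HFD with exactly 3 markers. *H2-Eb1* was at 270.3 and 979 CPM on ND and 1489.9 and 1077 CPM on CDA-HFD, and 52.7% of the counts of the ND-fed Lyz2Cre/+.Egr2fl/fl mouse came from 1 cell. In the ND-fed Egr2fl/fl mouse, *H2-Aa* was at 519, 492 and 561 CPM with 4, 5 and 6 markers. In the CDA-HFD-fed one it was at 2124, 1298 and 415 CPM, so with all 6 it was lower on CDA-HFD. *H2-Aa*, *H2-Ab1* and *H2-Eb1* have the limit of 8 counts in a cell. The depth of the cells and their number of markers also differed between diets, and the part of these in the difference was not tested. *Cd74*, the invariant chain, had ratios of 1.53 (1.45 to 1.61) and 1.17 (1.1 to 1.25).

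Interferon-responsive genes had no common direction. Of 6 in the Egr2fl/fl pair, 1 was higher and 3 lower, of 8 in the other pair, 4 were higher and 1 lower, and *Isg15* was higher and *Gbp2* lower in both. Over all genes, 7.35% and 11.3% were higher and 6.59% and 6.11% lower. *Cxcl10* was at 275 and 0 CPM on ND and 38.2 and 22 CPM on CDA-HFD. Of the 221 counts of the ND-fed Egr2fl/fl mouse, 75.1% came from 1 cell.

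The genotype comparison asked how cells of a mouse with Lyz2-Cre deletion of *Egr2* differed from those of an Egr2fl/fl mouse on the same diet. *Egr2* itself was scarce: Ly6Clo monocytes held 0 and 0 counts on ND and 30 and 18 on CDA-HFD, or 14.3 and 6.30 CPM, with a CDA-HFD genotype ratio of 0.440 (0.232 to 0.815). These counts fell short of the 50 needed for a call. Across all selected cells there were 1 and 0 counts on ND and 163 and 45 on CDA-HFD, or 26.1 and 6.23 CPM. There *Egr2* was called lower in the Lyz2Cre/+.Egr2fl/fl mouse on CDA-HFD. *Egr2* was at 20.3 and 8.49 CPM on ND and 37.1 and 15 CPM on CDA-HFD in the classical gate. Where on the transcript these tags lie relative to the deleted exons is not given in the sources used here, so the level does not check the deletion. *Lyz2*, whose locus carries the Cre, was at 12885 and 7729 CPM on ND and 12341 and 5751 CPM on CDA-HFD in Ly6Clo monocytes, with genotype ratios of 0.6 (0.577 to 0.623) and 0.466 (0.457 to 0.475), and at 33885 and 18407 CPM on ND and 22869 and 11559 CPM on CDA-HFD in the classical gate, with ratios of 0.543 and 0.505. It was lower in the Lyz2Cre/+.Egr2fl/fl mouse on both diets and in both classes. Values under 11 in a cell were absent, and their part in the ratios was not tested. In such mice 1 copy of the *Lyz2* locus holds Cre.

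Few genes separated the genotypes on both diets. In Ly6Clo monocytes, 115 of 3524 genes (3.26%) were higher and 181 (5.14%) lower in the Lyz2Cre/+.Egr2fl/fl mouse on ND, and 200 of 7347 (2.72%) higher and 123 (1.67%) lower on CDA-HFD. Of 3517 genes with enough counts on both diets, 3 (0.0853%) were higher and 0 (0.0%) lower on both. In all selected cells, 137 of 4804 genes (2.85%) were higher and 212 (4.41%) lower on ND, and 164 of 9945 (1.65%) higher and 134 (1.35%) lower on CDA-HFD.

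The 3 genes higher on both diets were *Lpl*, *Plp2* and *C1qb*. *Lpl* had genotype ratios of 2.09 (1.16 to 3.79) and 2.51 (2.23 to 2.83), with 23 and 28 counts on ND. In cells with exactly 3 markers *Lpl* was at 141 and 117 CPM on ND and 1015 and 1211 CPM on CDA-HFD, so that the genotypes were not separated 2-fold there. *Plp2*, a proteolipid gene, was at 46.1 and 96 CPM on ND and 29.6 and 59.8 CPM on CDA-HFD, with ratios of 2.08 (1.32 to 3.31) and 2.02 (1.5 to 2.75), and at 70.7 and 54.6 CPM on ND and 43.3 and 43.1 CPM on CDA-HFD with exactly 3 markers. Under TMM scaling its CDA-HFD ratio fell just below 2-fold. *C1qb* was listed with no count in the ND-fed Egr2fl/fl mouse and 78 in the ND-fed Lyz2Cre/+.Egr2fl/fl mouse, of which 65.4% came from 1 cell, and with values under 6 absent no fold can be given.

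Heat shock genes differed between the genotypes on CDA-HFD. Of 6 with enough counts, *Hspa1a*, *Hspa1b*, *Dnajb1* and *Hsp90aa1* were lower in the Lyz2Cre/+.Egr2fl/fl mouse and none was higher, with a list median of 0.422 beside 1.03 for all genes. The chaperone gene *Hspa1a*, which shares near-identical sequence with *Hspa1b*, was at 156 and 314 CPM on ND and 1758 and 337 CPM on CDA-HFD, with genotype ratios of 2.01 (1.58 to 2.58) and 0.192 (0.178 to 0.206). On ND the Egr2fl/fl mouse was the lower one, and on CDA-HFD the higher one. Under TMM scaling the ND ratio of *Hspa1a* did not reach 2-fold. The classical gate showed the same order on CDA-HFD, at 136 and 136 CPM on ND and 1104 and 221 CPM on CDA-HFD, so the difference was not limited to Ly6Clo monocytes. *Hspa8*, the constitutive member of the family, had genotype ratios of 0.721 (0.644 to 0.807) and 0.847 (0.802 to 0.895). With 1 mouse per group, genotype and mouse cannot be told apart.

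No classical, surface, transcription factor or immediate early gene was called between genotypes on both diets. Of the classical genes, *Chil3* and *Fn1* were higher in the Lyz2Cre/+.Egr2fl/fl mouse on ND and none of 9 was called on CDA-HFD. Of 17 surface genes, *Itgax* was higher on ND, at a ratio of 2.07, and none was called on CDA-HFD, and of 9 transcription factor genes none was called on either diet. *Cx3cr1* had genotype ratios of 0.849 (0.722 to 0.997) and 1.28 (1.18 to 1.39) and *Nr4a1* of 0.948 (0.794 to 1.13) and 0.88 (0.824 to 0.94). Of 13 immediate early genes with enough counts on CDA-HFD, among which *Egr2* was not, *Nr4a3* alone was called. It was at 1.25 and 0 CPM on ND and 20.5 and 8.75 CPM on CDA-HFD. Of 8 cytokine genes on CDA-HFD, *Tnf* and *Il1rn* were called higher in the Lyz2Cre/+.Egr2fl/fl mouse and none lower, beside 2.72% of all genes higher. *Trem2* had genotype ratios of 6.28 (2.94 to 14.9) and 1.23 (1.07 to 1.41), with 9 counts in the ND-fed Egr2fl/fl mouse.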

How the data were processed

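Liver myeloid cells of 4 mice were pooled by hashtag and sequenced with the TAS-Seq workflow on a BD Rhapsody. The authors mapped reads to a GRCm38 transcriptome, called cells and assigned hashtags, and deposited a table of raw counts per gene and cell barcode and one of hashtag counts, neither normalized. The sources used here do not give whether reads or molecules were counted. The submitters' processing notes list R 4.2.1 and Seurat 4.1.1, whose cell-level tests were not used here. The barcodes of 1392 doublets named by the authors and 7 hashtag columns of no mouse were left out. A doublet within 1 mouse was not removed.

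Counts were summed over cells of a mouse and divided by their total to give CPM. Levels carry exact Poisson intervals, ratios exact binomial ones, shares Clopper-Pearson ones and differences of shares Newcombe ones, all at 95% and for counting error only. A gene was called at a 2-fold ratio with at least 50 summed counts, a mouse with no count being set at 3 counts. No p-value was computed, since each group was 1 mouse. The classical and Kupffer cell gates used for comparison were chosen by marker genes of those cells and left out cells with 3 or more of the 6 markers. Genes were named by the 10 highest and 10 lowest of the smaller ratio of both pairs among called genes found in at least 10% of the cells of the higher mouse. The leading 20 against cells that the rule did not select, after adding 1 CPM, and any member of the listed groups could also be named. The leading 20 were taken among genes found in at least 20% of the cells of every mouse. Shares were repeated after thinning to 5000 counts and carriage after thinning to 3000. The members, the gene lists and the split at 4 markers were chosen with earlier results of these data known. Alternatives covered the mitochondrial limit, the number of markers, the excluded genes, hashtag purity, doublet-like cells, scaling by TMM and the count minimum. Python 3.11.15, numpy 2.4.6, scipy 1.17.1, pandas 2.3.3 and matplotlib 3.10.9 were used, with R 4.3.3 and edgeR 4.0.16 for TMM factors. The scripts were tested on simulated counts. Values of some genes are not reported here.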

Additional observations from a re-analysis of the deposited data

Results flagged for a closer look

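The share of selected cells was lower in the Lyz2Cre/+.Egr2fl/fl mouse on ND, by -2.51 percentage points, and higher on CDA-HFD, by 0.752 points (-0.238 to 1.74). After thinning these differences were -2.14 points (-3.86 to -0.418) and 1.13 points (0.247 to 2.02). Among cells with at least 4 markers the genotype difference was -2.33 points on ND and 0.629 points (-0.0533 to 1.31) on CDA-HFD, and the diet difference was -2.57 points in the Egr2fl/fl pair and 0.392 points (-0.746 to 1.39) in the Lyz2Cre/+.Egr2fl/fl pair. After thinning the genotype difference was -1.96 points (-3.50 to -0.418) on ND and 0.502 points (-0.111 to 1.11) on CDA-HFD, whereas the diet difference was -3.18 and -0.717 points, and with at least 5 markers -2.40 and -1.01 points, so both diet pairs then had the same sign. These results were picked out because the values of the 2 pairs had opposite signs, several intervals hold 0, and the difference between the pairs was not tested.

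In Ly6Clo monocytes *Cxcl10* had diet ratios of 0.139 in the Egr2fl/fl pair and at least 3.44 in the Lyz2Cre/+.Egr2fl/fl pair, the latter with no count on ND and 3 counts set in its place, and with 75.1% of the ND-fed Egr2fl/fl counts from 1 cell. *Pf4* had diet ratios of 2.14 and 0.414, with 90.5% of the 21 counts of the ND-fed Lyz2Cre/+.Egr2fl/fl mouse from 1 cell. The genotype ratios of *Hspa1a* were 2.01 for the ND pair and 0.192 for the CDA-HFD pair, with at most 17.0% of its counts from 1 cell in any mouse. Under TMM scaling its ND ratio did not reach 2-fold. In all, 42 genes passed 2-fold in opposite directions in the diet pairs and 5 in the genotype pairs. None of these differences was tested.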

How the results depend on the processing

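Of the recomputed shares and counts, 97 stayed within their interval or within 1.5 times and 43 moved. The share of selected cells became 13.7% and 11.2% on ND and 8.84% and 10.2% on CDA-HFD with no gene required at 0, 11.3%, 7.42%, 18.7% and 20.1% with at least 2 markers, 5.92%, 3.58%, 3.35% and 3.98% with at least 4, and 3.95%, 2.70%, 1.55% and 1.70% with at least 5. On CDA-HFD it became 8.54% and 9.52% with at least 90% own hashtag, 6.41% and 7.11% without cells holding C1q counts, and 4.80% and 5.94% after thinning, and in the Egr2fl/fl mouse 7.01% without doublet-like cells. The share with at least 4 markers became 2.19% and 2.69% on CDA-HFD after thinning, and 4.53% in the Lyz2Cre/+.Egr2fl/fl mouse with no gene required at 0.

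Called genes in the Egr2fl/fl diet pair numbered 1301 in the selected cells, 806 with at least 4 markers, 457 with at least 5, 400 at 200 summed counts and 4168 with 1 count in each mouse. The Lyz2Cre/+.Egr2fl/fl diet pair went from 1581 to 568 with at least 5 markers, 453 at 200 counts and 3749 with 1 count each, the ND genotype pair from 349 to 207, 26 and 2986, and the CDA-HFD genotype pair from 298 to 37 at 200 counts and 3016 with 1 count each. In Ly6Clo monocytes, genes higher on CDA-HFD in both pairs went from 167 to 67 at 200 counts and 295 with 1 count each, and genes lower in both from 65 to 9 and 512, and to 39 under TMM. The diet split of higher and lower genes was 560 and 1042 in the Egr2fl/fl pair and 724 and 1075 in the other with no gene required at 0. Of single gene ratios, 767 stayed, 125 moved and 1 turned: *Pglyrp1* in selected cells of the Lyz2Cre/+.Egr2fl/fl diet pair was 1.05 with no gene required at 0. No called gene of the lists changed direction under TMM, and 2, 4, 2 and 1 lost the call. Leaving out C1q cells and the cut at 5 markers were chosen after seeing the data; the causes of these moves were not tested, except that fewer cells and higher minimums leave fewer genes to call. No replicate block was fitted, since each group was 1 mouse, and a block of diet by genotype over the 4 mice was not run.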

Other observations

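Survival genes of Ly6Clo monocytes did not move together with diet. Of 6 with enough counts, *Bcl2a1d* was called lower in the Egr2fl/fl pair, a call lost under TMM scaling, and none was called in the Lyz2Cre/+.Egr2fl/fl pair. *Bcl2a1a*, *Bcl2a1b* and *Bcl2a1d* are near-identical copies among which reads may be divided uncertainly. *Mcl1*, an anti-apoptotic gene, was at 295 and 275 CPM on ND and 345 and 356 CPM on CDA-HFD. Of 5 Fc receptor genes, *Fcgr1* alone was called, higher in the Lyz2Cre/+.Egr2fl/fl pair, at 43.6 and 36.3 CPM on ND and 60.6 and 103 CPM on CDA-HFD. *Fcgr4*, the activating receptor that Ly6Clo monocytes carry, was at 791 and 988 CPM on ND and 555 and 524 CPM on CDA-HFD, against 80.2 and 22.6 CPM on ND and 89 and 116 CPM on CDA-HFD in the classical gate.

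Of the glucocorticoid-responsive and clock genes, *Per1* was higher in both pairs, whereas *Tsc22d3*, a classical glucocorticoid target, was at 488 and 354 CPM on ND and 262 and 269 CPM on CDA-HFD, with diet ratios of 0.537 (0.471 to 0.613) and 0.76 (0.642 to 0.904). *Fkbp5* was at 2.49 and 8.54 CPM on ND and 12.9 and 38.1 CPM on CDA-HFD, with 2 and 4 counts on ND. Of complement genes, *C1qa*, *C1qb*, *C1qc* and *C3* were higher in the Egr2fl/fl pair, the first 3 against a listed 0, and those higher in the other included *C3*. It was at 46.1 and 61.9 CPM on ND and 129.8 and 141 CPM on CDA-HFD, with diet ratios of 2.82 (1.99 to 4.09) and 2.28 (1.57 to 3.46), whereas in the classical gate its ratios were 0.493 and 0.722. Of the 3 and 5 Kupffer cell genes with enough counts, *Nr1h3* and *Id3* were higher in the Egr2fl/fl pair and *Cd5l*, *Id3* and *Spic* in the Lyz2Cre/+.Egr2fl/fl pair, where 96.9% of the CDA-HFD *Cd5l* counts came from 1 cell. *Id3* was thus higher in both, at 39.9 and 173 CPM on ND and 652 and 366 CPM on CDA-HFD, and it was at 79.3 and 96.2 CPM on ND and 799.7 and 632 CPM on CDA-HFD in the classical gate. *Timd4*, the marker of resident Kupffer cells, held 2, 2, 3 and 2 counts in the 4 mice. *Stmn1* was the 1 proliferation gene with enough counts, at 9.97 and 0 CPM on ND and 20.1 and 26.9 CPM on CDA-HFD.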
